A study of Mus musculus with 3 samples.

Results

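C1q+ macrophages of juvenile mouse long bone were 78 of 15628 cells that passed the filters in 3 droplet-based single-cell RNA-sequencing libraries. They were chosen by their own transcripts. A member carried at least 5 UMIs of *C1qa* and *C1qb* together and at least 3 UMIs of the pan-leukocyte genes *Laptm5* and *Tyrobp*. It had at most 1 UMI of the endothelial genes *Pecam1* and *Cdh5* and under 3% of its UMIs from the neutrophil granule genes *Ngp*, *Camp*, *S100a8* and *S100a9*. A UMI, or unique molecular identifier, tags a single captured transcript molecule. Of the 78 members, 77 came from a single library, and every value below is from those 77 cells unless another library is named.

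C1q is the recognition molecule of the classical complement pathway. It is built from 3 chains, A, B and C, each encoded by its own gene, and tissue macrophages are its main source in the body. Macrophages of bone and marrow clear dying cells and ageing red cells, recycle haem iron, present antigen on MHC class II and lie close to osteoblasts and vessels, and they share an origin with the bone-resorbing osteoclast.

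All mice were untreated males on the C57BL/6 background at 3 weeks of age. The *Pdgfra*-GFP library held GFP+, DAPI-negative cells sorted from the digested metaphysis, by the study's results section with the epiphysis, of femur and tibia of heterozygous *Pdgfra-H2B-GFP* knock-in mice, in which a nuclear GFP is expressed from the *Pdgfra* locus. The 2 metaphyseal libraries held cells of wild-type C57BL/6J metaphysis left after magnetic depletion of lineage-positive, CD45+ and CD117+ cells. The *Pdgfra*-GFP sort selects mesenchymal cells and the bead depletion removes blood cells, so neither preparation was made to recover macrophages. How many animals were pooled is not given in the sources used here.

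The *Pdgfra*-GFP library held 91747759 UMIs, and the metaphyseal libraries held 25243314 and 22082735. Members were 77 of 11242 kept cells in the *Pdgfra*-GFP library, a share of 0.685% with an exact 95% binomial interval of 0.541 to 0.855%. They were 1 of 2004 cells, 0.0499% (0.00126 to 0.278%), in metaphyseal library 2. Metaphyseal library 1 had 0 of 2382 cells, which allows a share of up to 0.126% as 3 cells and up to 0.155% as the exact upper limit. Intervals here and below cover counting error only. Leukocytes as such were not missing from the depleted libraries, which held 34 and 14 cells with *Laptm5* and *Tyrobp* but at most 1 *C1qa* or *C1qb* UMI. The sort, the depletion and the genotype cannot be told apart as sources of the difference in share. Median depth was 5330 UMIs per kept cell in the *Pdgfra*-GFP library and 6257 and 6426 in the metaphyseal libraries, and the metaphyseal libraries were held to the higher minimum of 1500 genes per cell against 1000. Members had 1017 genes or more, and with the minimum of 1500 genes in every library (chosen after seeing the data) they were 66 of 9015 cells of the *Pdgfra*-GFP library, 0.732% (0.567 to 0.930%).

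The limit of 5 UMIs fell into a sparsely filled range. Of the 77 members, 73 had at least 10 *C1qa* and *C1qb* UMIs, and the 4 nearest to the limit had 5, 5, 6 and 8. Just outside it, 1 cell had 4 UMIs, 1 had 3 and 9 had 2. A single cell with 8 *C1qa* and *C1qb* UMIs failed on *Laptm5* and *Tyrobp*, of which it had 2. Another 225 cells of the same library had exactly 1 *C1qa* or *C1qb* UMI. Among all 236 cells with 1 to 4, only 14 met the limit on *Laptm5* and *Tyrobp*. Barcodes with 1 to 50 UMIs, which hold free RNA and no cell, carried *C1qa* and *C1qb* at 95.2 UMIs per 1000000 of their UMIs in this library, and at 0.495 and 3.46 in the metaphyseal libraries.

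**Figure D1:**
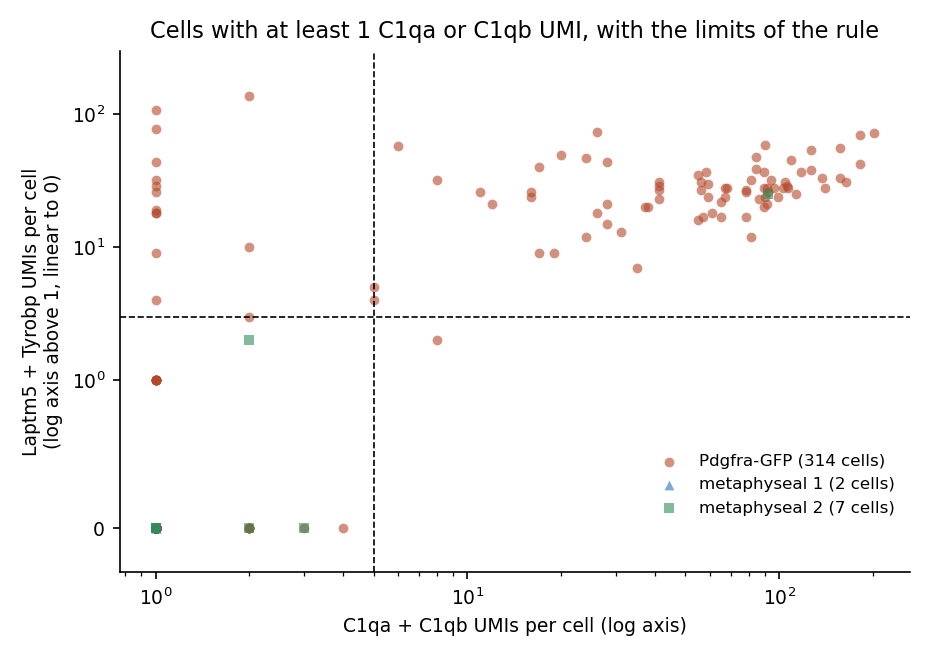
UMIs of *C1qa* and *C1qb* (x axis, log scale) against UMIs of *Laptm5* and *Tyrobp* (y axis, log scale above 1 and linear to 0) in every kept cell with at least 1 *C1qa* or *C1qb* UMI, by library. Dashed lines are the limits of the rule; 77 *Pdgfra*-GFP cells and 1 metaphyseal cell lie in the upper right, and most other cells lie at 1 UMI and at or near 0 on the y axis.

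With a single library holding the members there is no replicate of the group, so no test was made and no p-value is given. Levels are UMIs summed over the cells of a population and divided by all UMIs of that population, in counts per 1000000 UMIs (CPM). They come from the 3′ ends of transcripts and are not scaled by length, so they compare a gene between populations and not genes with each other. A gene was counted as higher or lower where the summed levels differed at least 4-fold, the higher one was at least 50 CPM and the exact 95% counting interval of the ratio stayed beyond 2-fold. The members' own 10 gate genes were left out of these counts. In the comparison with other leukocytes the rule counted 0.803% of 18186 genes as higher in C1q+ macrophages and 0.874% as lower.

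The members held 518455 UMIs in all, with 1996 to 18245 per cell and a median of 6229. They were set beside 146 other leukocytes of the same library (median 6062.5 UMIs), which had at least 3 *Laptm5* and *Tyrobp* UMIs but at most 1 of *C1qa* and *C1qb*, 218 endothelial cells (5882.5) with at least 5 *Pecam1* and *Cdh5* UMIs, and 9476 mesenchymal cells (5629) with at least 5 UMIs of *Col1a2*, *Col3a1* and *Pdgfra*. Endothelial and mesenchymal cells were also held to at most 1 UMI of *C1qa* and *C1qb* and at most 1 of *Laptm5* and *Tyrobp*. Other leukocytes and mesenchymal cells met the members' limits on endothelial and neutrophil genes. Low levels of C1q and leukocyte genes in endothelial and mesenchymal cells therefore follow in part from the gates. Scrublet called 155 cells of the library as doublets, 2 of them members. Of the members, 1 had a barcode that also passed the filters in metaphyseal library 1.

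The 3 C1q genes lie side by side on the minus strand of chromosome 4 (GRCm38), *C1qb* at chr4:136880129-136886187, *C1qc* at chr4:136889804-136893065 and *C1qa* at chr4:136895917-136898803, each with 3 exons. *C1qa* and *C1qb* chose the members, and their summed levels of 5586 CPM (5384 to 5793) and 4978 CPM (4788 to 5174) are given as a description. Per cell they added up to 5 to 201 UMIs with a median of 67. *C1qc*, the third chain, was not part of the rule but comes from the same cells. It was found in 77 of 77 members at 187 to 12422 CPM per cell with a median of 4291, and in 3 of 146 other leukocytes. With every cell thinned to 2000 UMIs, 96.1% of members kept a *C1qc* UMI against 0.347% of 9230 mesenchymal cells. The compared populations were gated to at most 1 *C1qa* or *C1qb* UMI, so part of the *C1qc* difference follows from the gates. The summed *C1qc* level was 4022 CPM in members and 2.44 CPM in other leukocytes, a ratio of 1647 (563 to 7991). Within single members the ratio of *C1qa* to *C1qc* UMIs had a median of 1.31 and quartiles of 0.962 and 1.72, with 3 members at 0. The ratio describes the spread between cells and not which of the 2 genes is more expressed.

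The 250 bases before the start of *C1qb* (chr4:136886201-136886450, minus strand) are shown as those of a gene that chose the members. Its detection in 76 of 77 members follows largely from that rule. The bases are from RefSeq on GRCm38.p6 and run 5′ to 3′ on the gene's strand. Capitals mark GAGGAA on either strand, the core letters bound by PU.1, the ETS factor of myeloid cells.

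C1qb: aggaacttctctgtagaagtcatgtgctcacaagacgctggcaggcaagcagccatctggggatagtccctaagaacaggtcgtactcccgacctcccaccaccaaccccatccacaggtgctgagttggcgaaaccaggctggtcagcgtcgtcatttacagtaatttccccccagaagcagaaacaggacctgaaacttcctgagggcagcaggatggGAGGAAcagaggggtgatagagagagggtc

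*C1qb* held the motif once, 30 bases before its start. Of 32851 mouse promoters of this length, 23.3% held GAGGAA, so a match is common and is given as a description. The RefSeq window of *C1qc*, not shown because it overlaps an exon in Gencode, held it once, 193 bases before the start. The promoter of *C1qa* was not analysed here.

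Genes of macrophage identity were high in the members. Of 22 identity genes, 10 were at least 4-fold higher than in other leukocytes and 0 were lower, and their median log2 ratio, with 10 CPM added to both levels, was 1.5 against −0.03 over all genes tested. *Adgre1*, which encodes the macrophage surface protein F4/80, was at 309 CPM in members and 19.5 in other leukocytes (15.8-fold, 10.2 to 25.4). It was found in 64 of the 77 members, with a median of 299 CPM per cell and a highest value of 2004. *Ms4a7*, a membrane protein gene of tissue macrophages, was at 1018 and 23.6 CPM (43.1-fold, 29.7 to 65.0) and was found in 69 members.

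*Aif1*, which encodes the actin-binding protein IBA1, reached 1670 CPM in members and 57.0 in other leukocytes (29.3-fold, 23 to 38). *Cx3cr1*, the fractalkine receptor, was at 395 and 27.7 CPM (14.3-fold, 9.90 to 21.2). *Mertk*, an efferocytosis receptor tyrosine kinase, was at 65.6 and 3.26 CPM. *Trem2*, a lipid-sensing receptor, was at 401 and 38.3 CPM, and the transcription factor gene *Maf* at 299 and 26.1 CPM.

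Some genes of the lineage differed less than 4-fold from the other leukocytes of the sort. *Csf1r*, the receptor for the macrophage growth factor CSF1, was found in 72 of 77 members at 627 CPM (561 to 699) and was at 239 CPM in other leukocytes (2.63-fold, 2.24 to 3.09). *Cd68*, a lysosomal membrane protein gene used to stain macrophages and osteoclasts, was at 822 and 339 CPM. *Apoe*, the lipid carrier apolipoprotein E, was among the 10 higher genes, at 24878 CPM against 1541 (16.1-fold, 15.4 to 16.9), and in single members it ran from 0 in 2 cells through a median of 23803 to 93464 CPM.

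**Figure D2:**
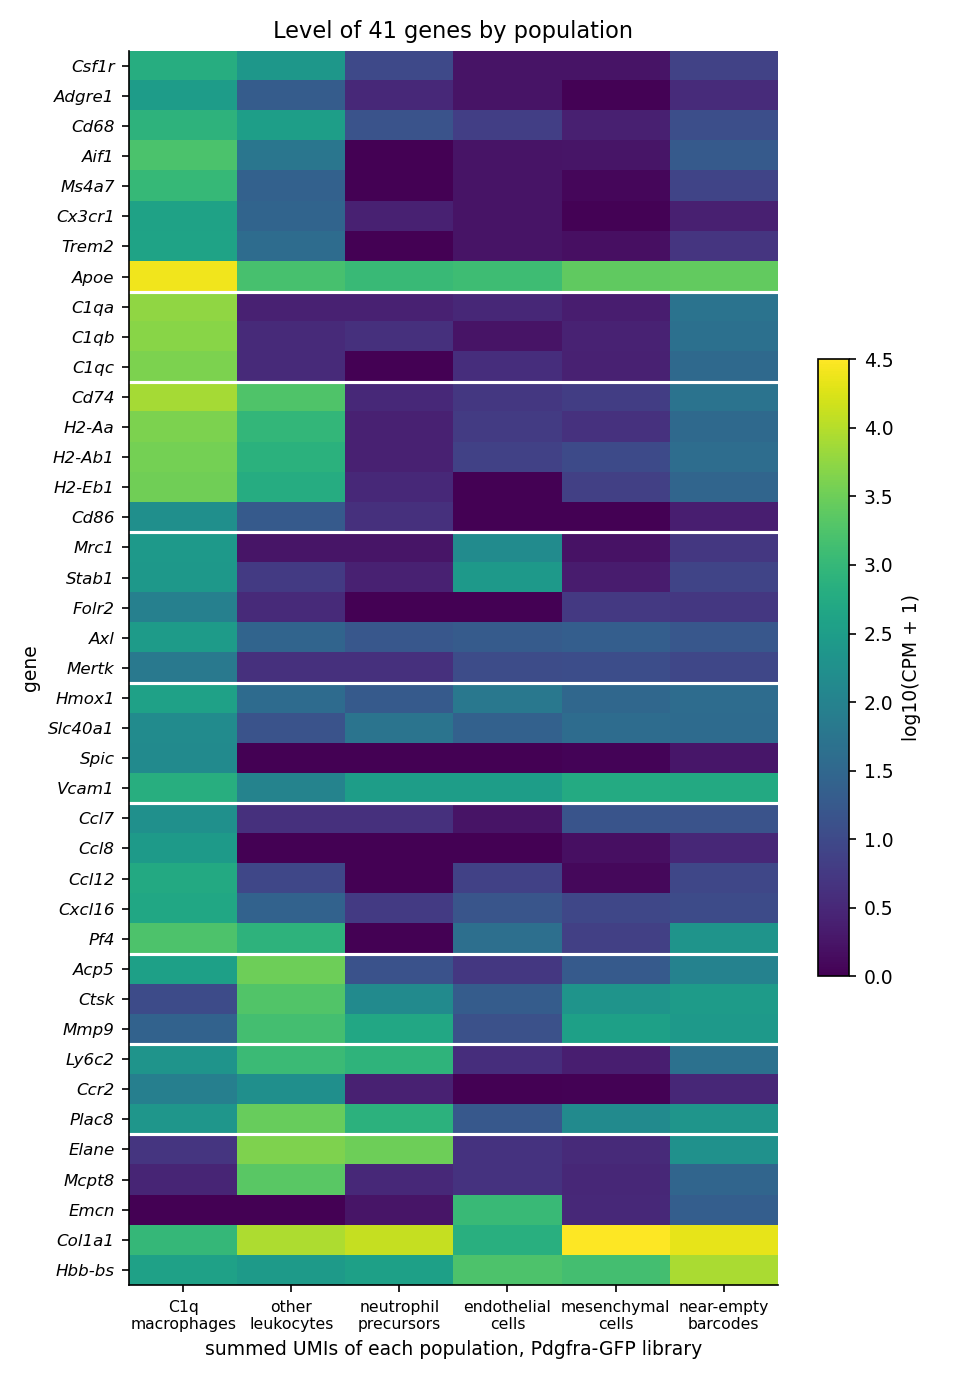
Heat map of the summed level of 41 genes (rows) in C1q+ macrophages, other leukocytes, neutrophil precursors, endothelial cells, mesenchymal cells and near-empty barcodes of the *Pdgfra*-GFP library (columns), on a colour scale of log10(CPM + 1). *C1qc*, *Adgre1*, *Ms4a7* and *Spic* are brightest in the macrophage column, while *Stab1* is as bright in endothelial cells and *Vcam1* in mesenchymal cells.

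Among 17 further complement genes 4 were higher than in other leukocytes and 0 were lower (median log2 ratio 0.22). Besides *C1qc* these were *Cfp*, which encodes properdin, the stabiliser of the alternative pathway convertase (627 against 138 CPM, 4.53-fold, 3.75 to 5.49), and the receptors for the anaphylatoxins C3a and C5a. *C3ar1* was at 170 and 13 CPM and *C5ar1* at 139 and 28.5 CPM. The central component *C3* was at 69.4 CPM in members and 55.4 in other leukocytes (1.25-fold, 0.813 to 1.91). The convertase component genes *C2* and *Cfb* were near 0 in members, at 5.79 and 1.93 CPM. *Vsig4*, the complement receptor of liver and peritoneal macrophages, had 0 UMIs in the 77 members, which allows up to 5.79 CPM.

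Scavenger and efferocytosis receptors fell into those present in many members and those at or near 0. Of 14 genes, 6 were higher than in other leukocytes and 0 were lower (median log2 ratio 1.42). *Mrc1*, the mannose receptor CD206, was found in 47 of 77 members at a summed 260 CPM, against 1 UMI in the other leukocytes (ratio 320, 56.4 to 12726). *Stab1*, stabilin-1, a receptor for modified lipoproteins and matrix fragments, was at 255 and 4.88 CPM (52.1-fold, 23.3 to 145). *Folr2*, a folate receptor of resident macrophages, was at 88.7 and 2.44 CPM, *Clec4n*, dectin-2, at 312 and 13.8 CPM, and *Axl*, a receptor of apoptotic cells, at 289 and 27.7 CPM.

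Several other genes that mark tissue macrophages were at or near 0. *Marco*, *Cd5l*, *Lyve1* and *Clec4f* had 0 UMIs in the 77 members. *Timd4* had 1 UMI, and the haemoglobin receptor *Cd163* and the sialoadhesin gene *Siglec1* were each at 15.4 CPM. *Mrc1* and *Stab1* were not particular to macrophages in this library, since endothelial cells held them at 149 and 269 CPM. Thinned to 2000 UMIs per cell, 27.6% of members and 19.3% of endothelial cells had an *Mrc1* UMI, against 61.0% and 32.1% unthinned and 0.422% of mesenchymal cells.

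Of 14 genes of iron and haem handling 7 were higher than in other leukocytes and 0 were counted as lower, with a median log2 ratio of 1.98 and a summed level 3.95-fold as high. *Hmox1*, haem oxygenase-1, was at 382 and 36.6 CPM (10.4-fold, 7.51 to 14.7), with 34 of 77 members positive, 27.3% of its UMIs from a single member and a top level of 12439 CPM in another. *Slc40a1*, the iron exporter ferroportin, was at 145 and 13 CPM (11.1-fold, 6.41 to 20.4), with 24.0% of UMIs from 1 of its 23 positive members. *Spic*, a transcription factor gene of red-pulp and marrow macrophages that recycle iron, was found in 38 members at a summed 143 CPM. It had 0 UMIs in the 146 other leukocytes, 58.4-fold lower with the floor of 3 UMIs taken over their sum (interval from 46.4).

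*Vcam1*, the adhesion molecule by which marrow macrophages hold developing red cells, was found in 54 members at 664 CPM against 102 in other leukocytes (6.52-fold, 5.30 to 8.07). Mesenchymal cells held it at 571 CPM and the near-empty barcodes at 543. *Blvrb*, biliverdin reductase B, was at 505 and 89.6 CPM, the phagosomal metal transporter gene *Slc11a1* at 125 and 24.4 CPM, and *Trf*, transferrin, at 777 and 154 CPM. The ferritin chain genes *Ftl1* (22471 against 5659 CPM, 3.97-fold) and *Fth1* (14491 against 3823 CPM, 3.79-fold) stayed just under the limit of 4-fold. *Tfrc*, the transferrin receptor for iron uptake, was at 3.86 CPM in members and 44.8 in other leukocytes.

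MHC class II genes were unevenly spread among the members. As summed levels, 6 of 13 genes were higher than in other leukocytes and 0 were lower (median log2 ratio 1.26). The invariant chain *Cd74* was at 7694 and 1840 CPM (4.18-fold, 3.97 to 4.41), *H2-Aa* at 4101 and 947 CPM (4.33-fold), *H2-Ab1* at 3599 and 738 CPM (4.87-fold) and *H2-Eb1* at 3348 and 605 CPM (5.54-fold, 5.08 to 6.04). The costimulatory genes *Cd86* (172 and 17.9 CPM) and *Cd83* (276 and 44.0 CPM) were the other 2. *Ciita*, the transactivator that switches class II genes on, was at 25.1 and 6.51 CPM and below the level needed to be counted.

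*H2-Aa* was found in 41 of 77 members, with a median of 195 CPM per cell, an upper quartile of 4688 and a highest value of 34662. The share of members with a UMI, 53.2% (41.5 to 64.7%), changed little when each cell was thinned to 2000 UMIs (51.3%), and was 21.2% in other leukocytes and 1.33% in mesenchymal cells, which should lack the gene. *Cd74* was found in 57 members (74.0%, thinned 64.5%) and in 1.90% of mesenchymal cells. The 4 genes *Cd74*, *H2-Aa*, *H2-Ab1* and *H2-Eb1* together ran from 0 in 16 members through a median of 1782 to 153194 CPM, and exceeded 10000 CPM in 29 members. Members without a UMI of these 4 genes were therefore present beside members in which the genes exceeded 10000 CPM. The pair of fixed markers *Cd74* and *H2-Aa* named for this population did not mark all of it.

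The promoters of *H2-Aa* (chr17:34287824-34288073, minus strand) and *H2-Eb1* (chr17:34305617-34305866, plus strand) are shown because these class II genes were present at high levels in some members and at 0 in others. The windows are the 250 bases before each start in RefSeq on GRCm38.p6, 5′ to 3′ on the gene's strand. Capitals mark GATTGG, the inverted CCAAT letters of the class II Y box bound by NF-Y, on either strand.

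H2-Aa: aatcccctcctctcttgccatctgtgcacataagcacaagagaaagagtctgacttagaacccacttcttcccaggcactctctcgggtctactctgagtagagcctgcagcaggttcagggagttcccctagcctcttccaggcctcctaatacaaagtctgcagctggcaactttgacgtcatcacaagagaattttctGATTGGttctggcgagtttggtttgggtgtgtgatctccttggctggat
H2-Eb1: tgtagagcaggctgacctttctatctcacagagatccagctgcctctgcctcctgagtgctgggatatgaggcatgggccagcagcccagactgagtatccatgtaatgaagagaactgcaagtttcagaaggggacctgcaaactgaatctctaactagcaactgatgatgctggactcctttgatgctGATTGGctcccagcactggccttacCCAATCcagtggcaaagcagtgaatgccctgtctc

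The letters stood 49 bases before the start of *H2-Aa* and 60 and 35 bases before that of *H2-Eb1*, the nearer match on the opposite strand. GATTGG was present in 14.6% of the 32851 promoters. The longer string CTGATTGG, which contains it, was in both shown and in 3.83% of all. The window of *H2-DMb1*, which overlaps an exon in Gencode and is not shown, held GATTGG once, 62 bases before the start, and did not hold CTGATTGG. The promoter of *H2-Ab1*, a gene at chr17:34257689-34269419, was not analysed here.

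Lysosomal genes differed less from other leukocytes, with 3 of 19 higher and 0 lower (median log2 ratio 1.03). *Lgmn*, the asparaginyl endopeptidase legumain, was at 1138 and 114 CPM (9.98-fold, 8.29 to 12.1), the protease cathepsin B gene *Ctsb* at 2590 and 595 CPM (4.35-fold) and *Lipa*, lysosomal acid lipase, at 118 and 27.7 CPM (4.25-fold).

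Of 20 chemokine and cytokine genes 8 were higher and 0 lower (median log2 ratio 1.31). The monocyte attractants *Ccl7*, *Ccl8* and *Ccl12*, neighbours on chromosome 11, were among them. *Ccl12* was at 548 and 8.14 CPM (67.3-fold, 36.1 to 142), from 31 members, with 28.2% of its UMIs in 1 of them. *Ccl8* was at 287 CPM from 23 members, and 33.6% of its UMIs lay in a single member. It had 0 UMIs in other leukocytes, a ratio of 118 with the floor of 3 UMIs (interval from 94.5). *Ccl7* was at 183 and 3.26 CPM. These chemokine transcripts were therefore detected in a minority of members, with 46 or more of the 77 cells at 0 UMIs for each gene. A cell at 0 UMIs may still hold the transcript below detection.

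*Cxcl16*, the ligand of CXCR6, was spread more evenly, in 60 of 77 members at a summed 482 CPM against 25.2 (19.1-fold, 13.1 to 28.7). *Il18* was found in 51 members at 255 and 6.51 CPM (39.1-fold), and the gene of its soluble inhibitor, *Il18bp*, was at 54.0 and 3.26 CPM. *Cxcl10*, an interferon-induced chemokine gene, was at 214 and 14.7 CPM. The anti-inflammatory cytokine gene *Il10* was found in 12 members at 82.9 CPM, with 3 UMIs in other leukocytes (ratio 34.0, 10.9 to 171). *Il1b* was at 582 and 408 CPM (1.43-fold, 1.23 to 1.65) and *Tnf* at 52.1 and 21.2 CPM (2.46-fold, 1.38 to 4.39). *Pf4*, platelet factor 4, was at 1755 and 813 CPM and was found in 65 members, in which the platelet gene *Ppbp* had 1 UMI in all.

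Growth factors that act on bone and vessels gave 1 gene higher and 1 lower of 18 (median log2 ratio 0.15), although their summed level was 0.413-fold that of other leukocytes. That sum includes *Spp1* and the osteoclast protease *Ctsk*. *Ctsk* gave 2365 of the 5752 list UMIs in other leukocytes and 5 of 1003 in members. *Igf1*, insulin-like growth factor 1, was at 268 and 61.1 CPM (4.39-fold, 3.29 to 5.90), a level below the 371 CPM of mesenchymal cells and near the 262 CPM of the near-empty barcodes. The gene counted as lower was *Ctsk*. *Tgfb1* was at 353 and 212 CPM, *Gas6*, the ligand of *Mertk* and *Axl*, at 177 and 103 CPM, and *Osm*, a cytokine by which bone macrophages act on osteoblasts, at 67.5 and 112 CPM (0.605-fold, 0.405 to 0.883).

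Of 17 transcription factor genes 2 were higher and 0 lower (median log2 ratio 0.38). *Nr1h3*, which encodes the sterol sensor LXRα, was at 145 and 4.88 CPM (29.6-fold, 13 to 83.3), and *Id2* was at 719 and 120 CPM (5.97-fold). Interferon response genes gave 0 higher and 0 lower of 11 (median log2 ratio 0.64), and early response and heat shock genes 0 and 0 of 12 (0.67). Beyond the lists, *Gdf15*, a stress-induced TGFβ-family cytokine gene, stood among the 10 highest ratios, at 341 and 2.44 CPM (ratio 140, 47.1 to 684) in 36 members. *Fcrls* was at 164 CPM and *Cbr2* at 112 CPM, both with 0 UMIs in other leukocytes and so at least 67.1-fold and 45.8-fold higher.

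Genes lower in C1q+ macrophages than in other leukocytes included those of osteoclasts, monocytes and granulocyte precursors. Of 14 osteoclast genes 0 were higher and 5 lower (median log2 ratio −1.64). *Acp5*, tartrate-resistant acid phosphatase, was at 365 CPM in members and 3214 in other leukocytes (8.82-fold lower, 7.62 to 10.3). *Ctsk*, cathepsin K, was at 9.64 and 1925 CPM (200-fold lower, 85.4 to 615) and *Mmp9*, matrix metalloproteinase 9, at 25.1 and 1412 CPM (56.3-fold lower, 32.8 to 106). *Acp5* stayed detectable in 44 members, with a median of 175 CPM per cell, while the calcitonin receptor gene *Calcr* was at 0 and the fusion gene *Dcstamp* at 3.86 CPM.

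Of 13 monocyte genes 0 were higher and 6 lower (median log2 ratio −1.23). *Plac8* was at 233 and 2805 CPM (12.0-fold lower, 10.0 to 14.5), *Ly6c2* at 216 and 1149 CPM (5.32-fold lower) and *Chil3* at 36.6 and 551 CPM. *Ccr2*, the receptor for CCL2 on recruited monocytes, was at 86.8 and 173 CPM (1.99-fold lower, 1.44 to 2.81). The 10 lowest ratios included granule protease and basophil genes, such as *Elane* (3.86 against 4347 CPM), *Ctsg* (0 against 1815 CPM), *Mpo* and *Mcpt8*. With the floor of 3 UMIs *Ctsg* was 314-fold lower (interval from 255). These are transcripts of granulocyte precursors and basophils that the gate on 4 neutrophil genes did not remove from the other leukocytes. Of 12 dendritic cell genes 0 were higher and 1 lower (median log2 ratio −0.31), and of 10 cell cycle genes 0 and 1 (−1.36).

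Against endothelial cells, the rule counted 1.94% of 18186 genes as higher in C1q+ macrophages and 3.29% as lower. Identity genes were higher in 19 of 22 cases, chemokines and cytokines in 17 of 20, MHC class II in 8 of 13 and iron genes in 9 of 14, with 0 lower in each list. *Cd74* was at 7694 CPM in members and 4.30 in endothelial cells, a ratio of 1791 (822 to 4883). *H2-Eb1* had 0 endothelial UMIs, 1559-fold less with the floor of 3 UMIs (interval from 1266). Scavenger receptors overlapped more, with 4 of 14 higher and 1 lower in macrophages. *Stab1* was at 255 and 269 CPM (0.948-fold, 0.772 to 1.16) and *Mrc1* at 260 and 149 CPM (1.75-fold, 1.40 to 2.18), whereas *Cd36*, a fatty acid and lipoprotein receptor, was at 54.0 and 223 CPM (4.14-fold lower, 2.81 to 6.33). *Stab2*, the hyaluronan receptor of sinusoidal endothelium, separated the populations, at 5.79 CPM in macrophages and 236 in endothelial cells (40.8-fold lower, 13.9 to 199).

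Against mesenchymal cells the rule counted 2.42% of genes as higher in C1q+ macrophages and 2.75% as lower. Again 19 of 22 identity genes and 18 of 20 chemokine and cytokine genes were higher, and 7 of 14 scavenger receptors. *Ms4a7* had 12 UMIs in all 9476 mesenchymal cells (0.182 CPM, 5610-fold, 3185 to 10927), and *Cx3cr1* had 5 (ratio 5228, 2204 to 16272). *Vcam1* did not separate them (1.16-fold, 1.04 to 1.29). All 7 stromal, 6 osteoblast and 5 chondrocyte marker genes not used as gates were lower in macrophages, *Sparc* at 908 against 35675 CPM and *Col1a1* at 1009 against 32587 CPM.

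Transcripts of the stroma were nevertheless present in nearly every member. *Col1a1*, the main collagen gene of bone, was found in 76 of 77 members with a median of 699 CPM per cell. Its summed 1009 CPM was 4.71% of the 21402 CPM in near-empty barcodes of the same library. The osteocalcin gene *Bglap* stood at 2.63% of its near-empty level (631 CPM), *Sparc* at 3.43%, the cartilage collagen *Col2a1* at 5.68%, the red-cell gene *Hbb-bs* at 4.57% and the stromal chemokine *Cxcl12* at 8.33%. Genes of different source cells stood at percentages between 2.63 and 8.33 of their level in free RNA. The other leukocytes held more of such transcripts, with stromal markers at 15792 CPM against 2558 in members, osteoblast markers at 9054 against 1003 and chondrocyte markers at 1240 against 440, so 3 of 7, 3 of 6 and 2 of 5 of these genes were lower in members. *C1qc* stood at 4022 against 33.8 CPM and *Cd74* at 7694 against 51.5 CPM, far above it. *Gas6* (177 against 579 CPM) and *Vcam1* (664 against 543 CPM) lay nearer to free RNA, and what part of either came from it was not tested.

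**Figure D3:**
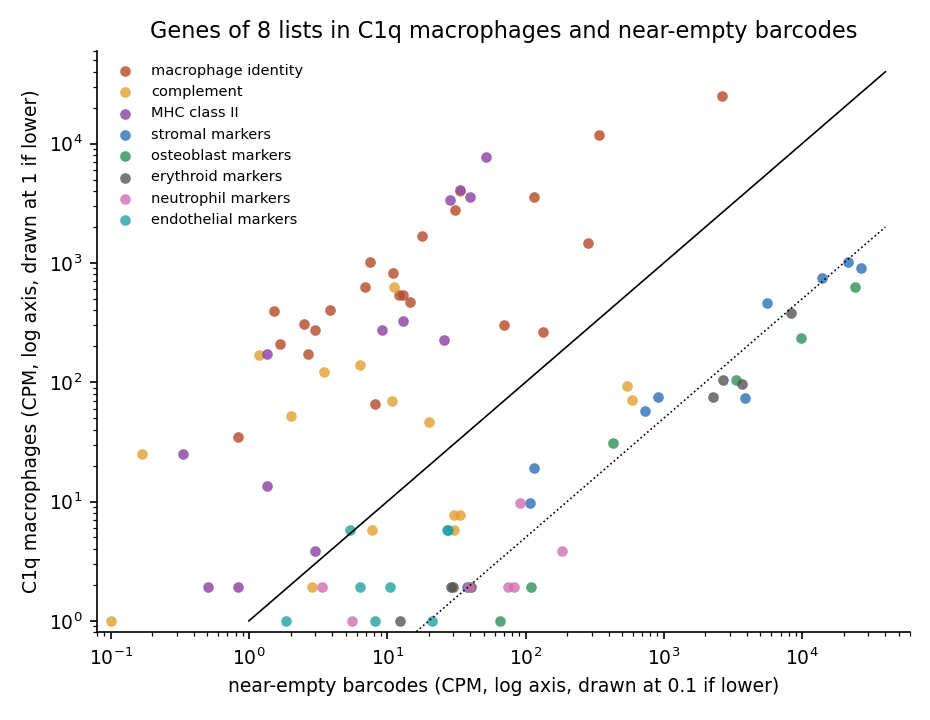
Level of the genes of 8 lists in near-empty barcodes (x axis, CPM, log scale) and in C1q+ macrophages (y axis, CPM, log scale), each point a gene coloured by its list. The solid line is equality and the dotted line is 5% of the near-empty level; most stromal, osteoblast and erythroid genes lie near the dotted line, and macrophage identity and MHC class II genes lie above the solid line.

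A single member stood apart, with 53314 CPM of stromal and osteoblast markers against 17702 in the next and a median of 3449. It held 13.2% of these markers' UMIs in all members and was not among the called doublets. The reporter transcript *H2B_GFP*, which the sort gate reads as protein, was at 5.79 CPM in members (3 of 77 cells, 3.90%, interval 0.811 to 11.0%), 15.5 in other leukocytes, 112 in endothelial cells, 102 in mesenchymal cells and 64.4 in near-empty barcodes. Thinned to 2000 UMIs, 0 of 76 members and 14.9% of 9230 mesenchymal cells had a reporter UMI. How cells with so little reporter transcript passed the sort was not tested.

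Endothelial markers were near 0, with a summed 21.2 CPM over 8 genes against 5518 in endothelial cells and *Emcn*, *Tie1* and *Flt4* at 0. Neutrophil markers added up to 21.2 CPM against 6804 in other leukocytes. The members' gates limit endothelial and neutrophil genes, so low levels of both marker sets follow in part from the gates. Of the erythroid markers, 0 of 8 differed by the 4-fold rule (664 against 528 CPM in sum). Of the mast cell, basophil and megakaryocyte list only 2 UMIs were found. *Cd3e*, *Cd3d*, *Trac* and *Cd8a* were at 0, but *Cd4*, which mouse macrophages can carry, was at 118 CPM in 32 members and 6.51 in other leukocytes (18.1-fold, 8.61 to 43.7). The immunoglobulin heavy chain gene *Ighm* was found in 48 members at 193 CPM while of the B cell receptor genes *Cd79a* had 1 UMI and *Cd79b* 36 UMIs (69.4 CPM against 91.2 in other leukocytes and 0 UMIs in endothelial cells), and 4 of 8 B cell markers were lower than in other leukocytes.

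Within the 77 members, the spread of each gene was described after every cell was thinned to 2000 UMIs, which left 76. The variance divided by the mean, a Fano factor near 1 for counting noise, had a median of 1.31 over the 543 genes with a mean of at least 0.5 UMIs. The factor, which grows with a gene's mean level, was highest for *Cd74* (42.7), *H2-Ab1* (27.0), *Apoe* (25.6), *H2-Aa* (25.4) and *H2-Eb1* (23.1). *Lyz2*, the lysozyme gene of monocytes and macrophages, followed at 22, then the chemokine *Ccl4* at 20.9, *Col1a1* at 20.7 and *Ccl12* at 18.3. Of these, 4 were class II genes, and 1 member held 30.4% of the *Col1a1* UMIs.

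To describe what varied with antigen presentation and with iron handling, members were ranked by the share of their UMIs from a set of genes and divided at the median. The class II score used 4 MHC class II genes (*Cd74*, *H2-Aa*, *H2-Ab1*, *H2-Eb1*). The iron score used 5 genes, of which *Hmox1*, *Slc40a1*, *Spic* and *Vcam1* are in the iron and haem list and *Cd163* is in the scavenger receptor list. The adhesion gene *Vcam1*, which stromal cells also express, is thus part of the iron score. Each score gave 38 high and 39 low members. These are ranges of a score and not cell types, since 15 members lay within 2-fold of the class II limit of 1782 CPM and 18 within 2-fold of the iron limit of 797 CPM. The scores did not rise together. Of the 38 class II-high members 15 were iron-high and 23 iron-low, and of the 39 class II-low members 23 were iron-high and 16 iron-low. The members with the highest class II levels, at 153194, 116413 and 104469 CPM, each had an iron score of 0. A member at 72727 CPM of class II genes was iron-high, at 1573 CPM.

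**Figure D4:**
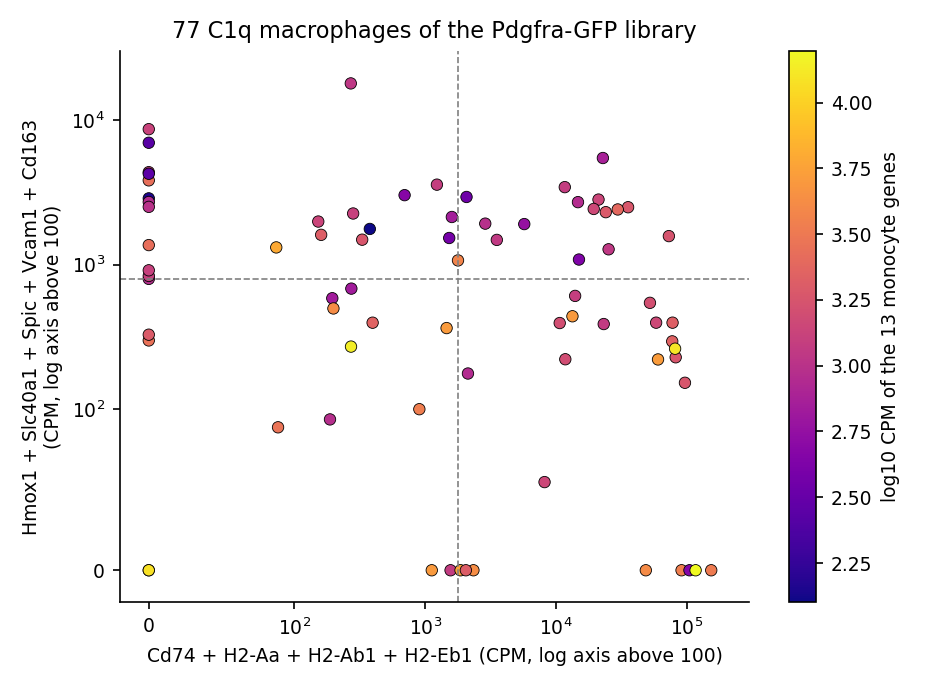
Each of the 77 C1q+ macrophages by its summed MHC class II genes (x axis, CPM) and summed iron genes (y axis, CPM), both log scales above 100 CPM and linear to 0, with dashed lines at the medians. Members spread over all 4 fields between them, with 16 at 0 on the x axis and 12 at 0 on the y axis.

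Few other genes differed between class II-high and class II-low members. The rule counted 0.055% of 18185 genes as higher in class II-high members and 0.077% as lower, 10 and 14 genes, at median depths of 6176.5 and 6229 UMIs. Between the 25 highest and 25 lowest members 21 genes were higher, and without the called doublets 7 were lower, with or without a new division. The clearest was *H2-DMb1*, a subunit of the H2-M peptide editor and itself a class II pathway gene, at 428 and 40.6 CPM (10.5-fold, 5.66 to 21.8), found in 24 of 38 and 10 of 39 members. Of the 9 class II list genes not used for the division it was the 1 counted, and their summed level was 2.65-fold (2.20 to 3.21), or 4.99-fold between the 25 highest and 25 lowest members. *Ciita* had 12 UMIs in class II-high and 1 in class II-low members (ratio 13.1, 1.94 to 561), too low a level to be counted.

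*Ccl8* was at 473 and 118 CPM (4.0-fold, 2.69 to 6.12) and the neutrophil attractant *Cxcl1* at 117 and 22.1 CPM. The C-type lectin receptor genes *Clec4b1* (109 and 18.5 CPM) and *Clec4d* (101 and 18.5 CPM) were also higher. *Ly6c2* was at 376 and 70.1 CPM, from 6 and 5 members. *Ccl5*, with 78 UMIs against 0, had 82.1% of them in 1 member, and its log2 ratio of 4.83 turned to −2.04 when the called doublets were left out and the members divided anew, but was 4.73 without the doublets in the original division. Genes lower in class II-high members rested in part on single cells as well. *Mmp13* (52.5 and 458 CPM) had 59.1% of its UMIs in a called doublet, whereas *Sox4*, with 1 UMI in 1 cell against 24 UMIs in 16 cells, was spread out.

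*C1qc* (3700 and 4315 CPM, 0.858-fold) and *Apoe* (26367 and 23517 CPM, 1.12-fold) differed little between class II-high and class II-low members, and *Cx3cr1* was at 355 and 432 CPM. The monocyte list, with 1 gene counted as higher and 1 as lower of 13, was at 2646 and 2436 CPM (1.09-fold, 0.973 to 1.21). The rule counted 0 of 14 scavenger receptor genes, whose summed level was 0.702-fold (0.602 to 0.818), and 2 of 20 chemokine and cytokine genes as higher, with a summed level of 1.64-fold (1.53 to 1.75). The summed level of stromal markers was 0.587-fold (0.531 to 0.648) in class II-high members, with 0 of 10 counted, and their part in these differences was not tested.

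The genes counted between iron-high and iron-low members depended in part on *Vcam1*. The rule counted 0.423% of 18184 genes as higher in iron-high members and 0.214% as lower, 77 and 39 genes, although iron-high members had the lower median depth (5619.5 against 7325 UMIs). Scavenger receptors not used for the division gave 3 of 13 genes higher, with a summed level 2.94-fold as high (2.51 to 3.47), or 4.46-fold between the 25 highest and 25 lowest members. Of the 10 iron and haem genes not used for it 1 was counted as higher, and their summed level was 1.38-fold (1.34 to 1.42). Of the score's own genes *Vcam1* gave 344 UMIs, *Hmox1* 198, *Slc40a1* 75, *Spic* 74 and *Cd163* 8. With *Vcam1* left out of the score (chosen after seeing the data) 12 members changed sides, 23 genes were higher and 27 lower, and 11 and 17 of these were also counted with it. No scavenger receptor, complement, growth factor or class II gene was then counted in either direction. Of 20 chemokine and cytokine genes 5 were then higher and 1 lower, against 3 and 1 with *Vcam1* in the score.

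*Stab1* was at 495 and 74.3 CPM (6.66-fold, 4.19 to 11.1) in 32 of 38 and 12 of 39 members, and *Mrc1* at 468 and 105 CPM (4.47-fold, 2.97 to 6.91) in 34 and 13. *Mertk* was at 126 and 20.3 CPM (6.22-fold, 2.53 to 18.4). Without *Vcam1* in the score the ratios were 3.47 for *Stab1*, 2.89 for *Mrc1* and 6.31 for *Mertk*, the only one of these to stay above the limit.

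Of 18 growth factor genes 2 were counted as higher in iron-high members, *Igf1* and *Gas6*, and the median log2 ratio of the list was 0.13. Its summed level, which includes *Ctsk* and *Spp1*, was 2.42-fold (2.12 to 2.76), 1.86-fold without the called doublets in the original division, and 1.26-fold without *Vcam1* in the score, where *Igf1* was at 1.83-fold and *Gas6* at 2.01-fold. *Igf1* was at 499 and 94.5 CPM (5.28-fold, 3.46 to 8.31) and *Gas6* at 351 and 47.3 CPM (7.42-fold, 4.17 to 14.2). *Pf4* was at 3073 and 766 CPM (4.01-fold, 3.45 to 4.68) and was found in 38 of 38 iron-high members and 27 of 39 iron-low ones. *Ccl7* was at 351 and 57.4 CPM. Without *Vcam1* in the score neither was counted, at 2844 and 950 CPM for *Pf4* and 322 and 80.5 CPM for *Ccl7*. *Ccl2*, *Ccl3*, *Ccl4*, *Ccl12* (5.76-fold) and *Il10* (5.91-fold) were counted as higher in that setting, and *Ccl5* as lower. Of 17 complement genes 3 were counted as higher and the summed level was 1.81-fold (1.68 to 1.95), with *C1qc* at 5696 and 2765 CPM (2.06-fold). Outside the lists, the secreted lectin ficolin A gene *Fcna* (175 and 13.5 CPM), the leukotriene C4 synthase gene *Ltc4s* (171 and 13.5 CPM) and *Pla2g2d*, a secreted phospholipase gene (126 and 10.1 CPM), were higher, and were also counted without *Vcam1* in the score (13.2-fold, 5.75-fold and 7.03-fold).

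Of 13 monocyte genes 5 were counted as lower in iron-high members and 1, the haptoglobin gene *Hp*, as higher. The summed level of the list was 0.457-fold (0.403 to 0.518), or 0.278-fold between the 25 highest and 25 lowest members. *S100a4* was at 13.5 and 837 CPM (62.0-fold lower, 21.0 to 303), found in 2 of 38 iron-high and 24 of 39 iron-low members. *Ccr2* had 0 UMIs in iron-high members and 45 UMIs in 15 iron-low members (152 CPM, at least 11.3-fold lower). *Ly6c2* was at 9.0 and 371 CPM (41.3-fold lower, 11.2 to 345), from 1 and 10 members, and *Plac8* at 58.5 and 365 CPM. Without *Vcam1* in the score the list was at 0.523-fold, *S100a4* was 25.8-fold lower and *S100a6* was also lower, *Ccr2* (32 and 128 CPM), *Ly6c2* (172 and 248 CPM) and *Plac8* (209 and 252 CPM) were not counted, and *Hp* turned from 5.55-fold to 0.370-fold.

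Of 13 class II genes 2 were counted as lower in iron-high members, and the summed level of the list, most of it from a few abundant genes, was 0.284-fold (0.270 to 0.299). *H2-Eb1* was at 1021 and 5095 CPM (4.99-fold lower, 4.34 to 5.76), *Cd74* at 3136 and 11114 CPM (3.54-fold lower) and *H2-DMb1* at 76.5 and 338 CPM. Of 10 cell cycle genes 1 was counted as lower. Their summed level was 243 and 790 CPM (0.308-fold, 0.224 to 0.415), and 4 iron-low members held 44, 35, 24 and 24 of the 234 UMIs behind the latter. *Top2a*, DNA topoisomerase IIα, was at 18 and 149 CPM (8.25-fold lower, 3.00 to 31.6), found in 4 and 12 members, and the S-phase gene *Tk1* at 13.5 and 118 CPM. Without *Vcam1* in the score the class II list was at 0.499-fold and *H2-Eb1* 2.37-fold lower, whereas cell cycle genes were at 0.326-fold, *Top2a* 8.14-fold lower and *Tk1* 6.29-fold lower.

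The summed level of stromal markers was 2.12-fold (1.92 to 2.34) in iron-high members, with 0 of 10 counted, and *Tnc*, *Ebf1*, *Serpine2* and *Mmp13*, genes of mesenchymal cells that stood among the 10 highest ratios, had their top cell among the called doublets. Without the member with the most stromal RNA, the members divided anew, the stromal list was at 1.63-fold, and without the called doublets in the original division at 1.91-fold. Without *Vcam1* in the score it was at 1.09-fold, and these 4 genes turned to lower in iron-high members. The part of this RNA in the other differences was not tested.

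**Figure D5:**
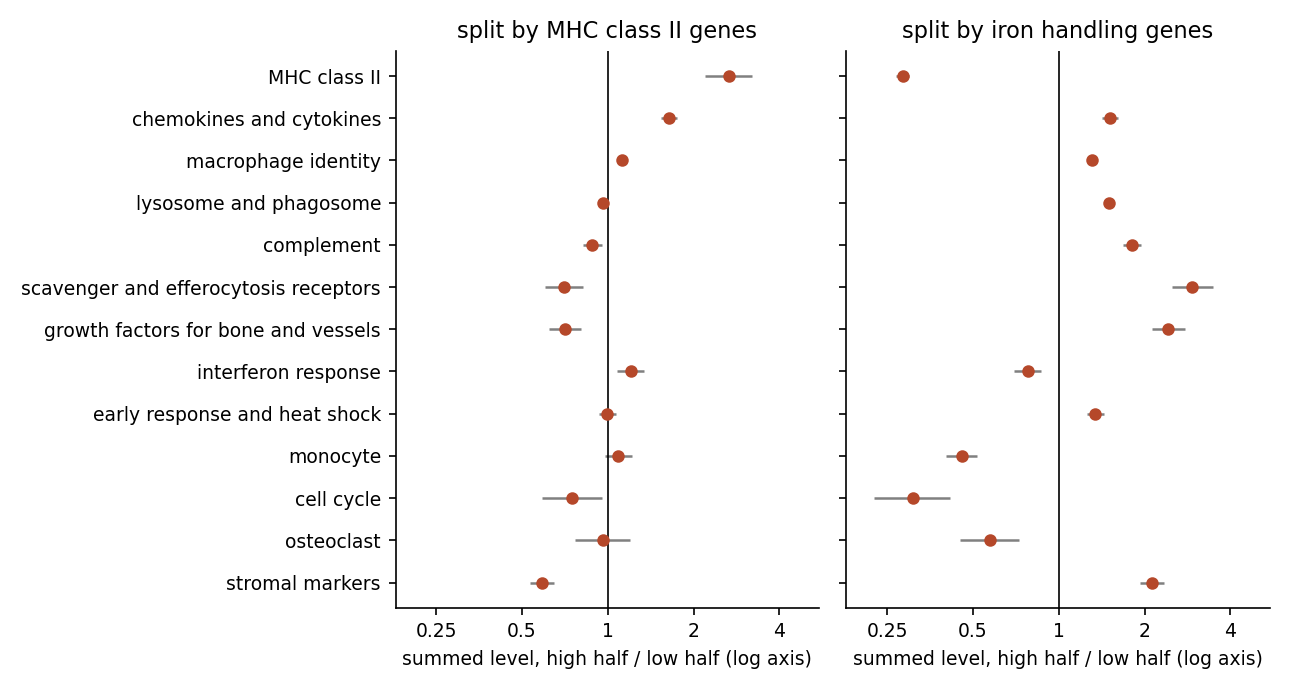
Summed level of each of 13 gene lists in high against low C1q+ macrophages (x axis, ratio, log scale) after division at the median by MHC class II genes (left) or iron genes (right), without the genes used for the division. Points are ratios and bars exact 95% counting intervals; in the iron panel scavenger receptors and growth factors lie above 1 and MHC class II, cell cycle and monocyte genes below it.

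The single member of metaphyseal library 2 had 9013 UMIs, 3177 genes and 92 UMIs of *C1qa* and *C1qb*. It carried 28 *C1qc*, 221 *Apoe*, 58 *Vcam1*, 58 *Cd14*, 33 *Hmox1* and 14 *Mrc1* UMIs. It had 0 UMIs of the 4 MHC class II genes, which allows up to 333 CPM. It also held 50 *Il1b*, 44 *Gdf15* and 35 *Cd83* UMIs, and 4 UMIs of *Vsig4*, the gene at 0 in all 77 members of the *Pdgfra*-GFP library. With 1 cell it is given as a value and not compared.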

How the data were processed

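The 3 files held whole-number counts of UMIs per gene and barcode, deposited by the authors for all barcodes before cells were called. The authors trimmed reads with fastp 0.20, aligned them with STAR 2.7.3a (STARsolo) to mm10 with Gencode M23 and the H2B-GFP sequence, and deposited unfiltered output. Kept barcodes had at least 1000 genes (*Pdgfra*-GFP) or 1500 genes (metaphyseal), at most 15% mitochondrial and at most 30% ribosomal protein UMIs. The members, populations, 25 gene lists and 2 divisions were chosen with earlier results of these data known, and the condition on the counting interval was added after 4-fold ratios alone were seen to arise by counting error.

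A quasi-likelihood test on summed counts had been planned. It was not run, because only 1 library held at least 10 members. UMIs were summed per population and compared as ratios of CPM with exact Poisson (conditional) intervals, and shares with Clopper-Pearson intervals, both at 95%. Counts under 3 UMIs over a summed population were set to a floor of 3 for calling and ranking, and ratios printed for counts of 1 or 2 are without it. A gene was examined if it had a UMI in more than 10 kept cells of the *Pdgfra*-GFP library (18199 of 55422 genes, with the gate genes of the compared populations then left out). The named genes were all 293 list genes and the 10 largest ratios each way in each comparison. Scrublet, run per library through scanpy 1.11.5, marked doublets, which stayed in unless stated. Gene positions are from Gencode on GRCm38 and promoters from RefSeq on GRCm38.p6. The ratio step was tested on simulated data. Python 3.11.15, numpy 2.4.6, scipy 1.17.1, pandas 2.3.3 and matplotlib 3.10.9 were used. The values of some list genes are not reported here.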

Additional observations from a re-analysis of the deposited data

How the results depend on the processing

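No replicate spread stands behind any ratio, since 77 of 78 C1q+ macrophages came from 1 library, and the intervals cover counting error only. No paired analysis was possible because only 1 library held members in number. For the same reason the planned count models (the quasi-likelihood test, DESeq2, other size factors, no filter on low counts, fits without the library block or with only the 2 populations, a minimum of 20 cells per sum, and leaving out each library) were not run.

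The share of members in the *Pdgfra*-GFP library stayed between 0.601 and 0.732% under 7 other limits on cells or members. With the called doublets removed, or only members with at least 10 *C1qa* and *C1qb* UMIs kept, or the member with the most stromal RNA left out (chosen after seeing the data), each count of genes against the other populations stayed within 1.5-fold. Of 57 alternative values 53 stayed within that range or within the interval of the share. The exceptions were the 10 genes higher in class II-high members, which became 21 between the 25 highest and 25 lowest members, the 14 genes lower in them, which became 7 without the called doublets, both with the members divided anew and in the original division, and the 77 genes higher in iron-high members, which became 23 without *Vcam1* in the score. The last 2 settings, and a minimum of 1500 genes in every library, were chosen after seeing the data. Without the doublets and with a new division the log2 ratios of *Ccl5* and *Col6a3* between class II-high and class II-low members turned to −2.04 and 1.73. In the original division *Col6a3* was at 1.62 and *Ccl5* at 4.73, so the turn of *Ccl5* came with the new division. Without *Vcam1* in the iron score *Tnc*, *Ebf1*, *Serpine2* and *Mmp13* turned to −2.08, −2.50, −2.64 and −2.70. Among the 10 largest ratios each way in the comparisons rerun, 326 values kept their size, 27 moved and 7 reversed. The other list genes were not part of this count, and of them *Hp* also turned without *Vcam1* in the iron score.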
